A study of Caenorhabditis elegans with 2 samples.

Results

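The genes of the cdc-48 ATPase and of ubiquitin in Caenorhabditis elegans were examined for binding of CEH-88, a homeodomain protein, in first-stage (L1) larvae. They are 8 of the 19973 nuclear protein-coding genes of the Ensembl annotation of WBcel235 (release 115), the assembly also called ce11. They comprise the paralogues cdc-48.1 and cdc-48.2, the cofactor genes npl-4.1, npl-4.2, ufd-1 and ufd-2, and the ubiquitin genes ubq-1 and ubq-2. All 8 symbols were found in the annotation, and each gene was taken with 2 kb on both sides. The set was chosen by values of these same lists, since the signal at cdc-48.1 was known to be among the highest, and the others were added as its paralogue, its cofactors and the genes of ubiquitin. Every value below is therefore a description, with no test.

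Chromatin immunoprecipitation followed by sequencing (ChIP-seq) had been carried out on whole larvae of strain OP593, with an antibody that recognises GFP. The strain carries the transgene wgIs593, which holds ceh-88 fused to TY1, EGFP and 3xFLAG together with a working unc-119, on the unc-119(tm4063) mutant background, and the labels name no change at the endogenous ceh-88 gene. The animals were starved after bleaching and were 6 hours old. There was 1 group with 2 biological replicates, replicate 1 and replicate 2, and both carry the same transgene. Untagged animals were not analysed here, the signal comes from all cells of the larva together, and the number of reads behind each value is unknown.

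CDC-48, called p97 or VCP in mammals, is a ring-shaped ATPase of the AAA family that pulls ubiquitin-tagged proteins out of membranes, chromatin and complexes, often on their way to the proteasome. It works with a heterodimer of UFD-1 and NPL-4 that binds the ubiquitin chain, while UFD-2 is an E4 ligase that lengthens such chains. The tag itself comes from ubq-1, which encodes a row of fused ubiquitin units, and from ubq-2, which encodes a single ubiquitin joined to ribosomal protein L40. Worms have paralogous genes for both CDC-48 and NPL-4.

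The deposited lists came in pairs. A ranked list holds regions that passed a cut on the irreproducible discovery rate (IDR) and regions that did not. Its thresholded list keeps only those that passed, called peaks here. The signal is the caller's own measure of strength, with no stated scale between lists, so that ratios are given within a list unless stated otherwise. The score rises as the IDR falls, reaches at most 1000, and equals 830 at an IDR of 0.01. The conservative list for the series held 1171 peaks, the other whole-series list 1349, the list of replicate 1 held 1128 and that of replicate 2 held 698. The ranked lists held between 85787 and 122341 regions, and those of the whole series did not hold all the same ones. At npl-4.2, for instance, the ranked list built with the conservative peaks had 1 region and the other had 3. Absence from a ranked list therefore does not show that the caller found nothing there.

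Sequences of 5 regions are printed because they carry the contrast within the set: both peaks of cdc-48.1, and for cdc-48.2, ubq-1 and ubq-2 the region with the highest score in the ranked list built with the conservative peaks (at ubq-1 the stronger of a tied pair). All were read from the RefSeq copy of ce11 in the direction in which the gene is transcribed. The promoter peak is shown whole and the others as the 201 bp centred on the summit. Capitals mark TAAT, a core shared by many homeodomain sites, on either strand, so that it can also read ATTA.
cdc-48.1 promoter peak, II:10563441-10563699, minus strand: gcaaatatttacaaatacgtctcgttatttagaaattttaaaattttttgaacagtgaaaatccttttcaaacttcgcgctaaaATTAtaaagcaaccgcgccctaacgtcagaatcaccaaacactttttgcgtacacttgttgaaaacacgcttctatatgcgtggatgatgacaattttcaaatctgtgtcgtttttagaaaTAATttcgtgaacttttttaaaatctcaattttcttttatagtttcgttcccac
cdc-48.1 downstream peak, II:10558973-10559173, minus strand: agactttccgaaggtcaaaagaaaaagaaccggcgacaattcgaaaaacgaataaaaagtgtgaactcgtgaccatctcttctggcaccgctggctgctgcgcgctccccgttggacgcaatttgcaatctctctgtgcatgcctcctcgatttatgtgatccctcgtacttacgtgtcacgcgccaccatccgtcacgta
cdc-48.2 upstream region, II:8137427-8137627, plus strand: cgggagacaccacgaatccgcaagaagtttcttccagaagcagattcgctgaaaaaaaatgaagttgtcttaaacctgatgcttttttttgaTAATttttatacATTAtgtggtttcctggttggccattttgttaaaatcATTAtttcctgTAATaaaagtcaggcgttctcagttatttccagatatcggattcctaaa
ubq-1 region, III:5940785-5940985, plus strand: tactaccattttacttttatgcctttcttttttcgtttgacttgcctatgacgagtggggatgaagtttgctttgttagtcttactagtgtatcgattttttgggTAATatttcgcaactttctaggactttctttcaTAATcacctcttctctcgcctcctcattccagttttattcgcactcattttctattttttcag
ubq-2 upstream region, III:12978886-12979086, minus strand: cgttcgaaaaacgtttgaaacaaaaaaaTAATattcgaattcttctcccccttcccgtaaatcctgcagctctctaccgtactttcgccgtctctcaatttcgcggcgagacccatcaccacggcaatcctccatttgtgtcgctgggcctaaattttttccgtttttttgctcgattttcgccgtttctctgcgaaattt

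The 201 bp around the summit held TAAT 2 times in the cdc-48.1 promoter peak, 0 times in its downstream peak, 4 times at cdc-48.2, 2 times at ubq-1 and 1 time at ubq-2. Across the 1171 conservative peaks, 69.3% of windows of this length held at least 1 TAAT, with a median of 1. The region of cdc-48.2, which did not pass the threshold, thus held more of them than the promoter peak of cdc-48.1. ATCGAT, the core of sites of the ONECUT class of homeodomain proteins, occurred 1 time in the ubq-1 region and in none of the other printed windows, and 8.37% of all conservative windows held it. CACGTG, the E-box of basic helix-loop-helix proteins, occurred in none of the 5, and 9.05% of all conservative windows held it. Each motif was searched on both strands, and a match describes letters only.

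The printed windows also differ in composition. G and C made up 31.8% of the 201 bp at the promoter peak of cdc-48.1, and 8.45% of the conservative windows had a lower share. The downstream peak of the same gene had 50.7%, with 82.3% of windows lower. The regions of cdc-48.2, ubq-1 and ubq-2 had 35.3%, 35.8% and 44.8%, and the median over all conservative peaks was 42.8%.

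Of the 8 genes, 1 had a peak in its window in the conservative list, and it was cdc-48.1. The count was again 1 of 8, for the same gene, in the other whole-series list, in replicate 1 and in replicate 2. Over all protein-coding genes the share with a peak in the window was 9.27% in the conservative list, 10.2% in the other whole-series list, 8.9% in replicate 1 and 5.86% in replicate 2. The count of 1 in 8 is near these shares, and nothing is read from it. The values that follow therefore concern how strong each region was and where it lay.

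**Figure D1:**
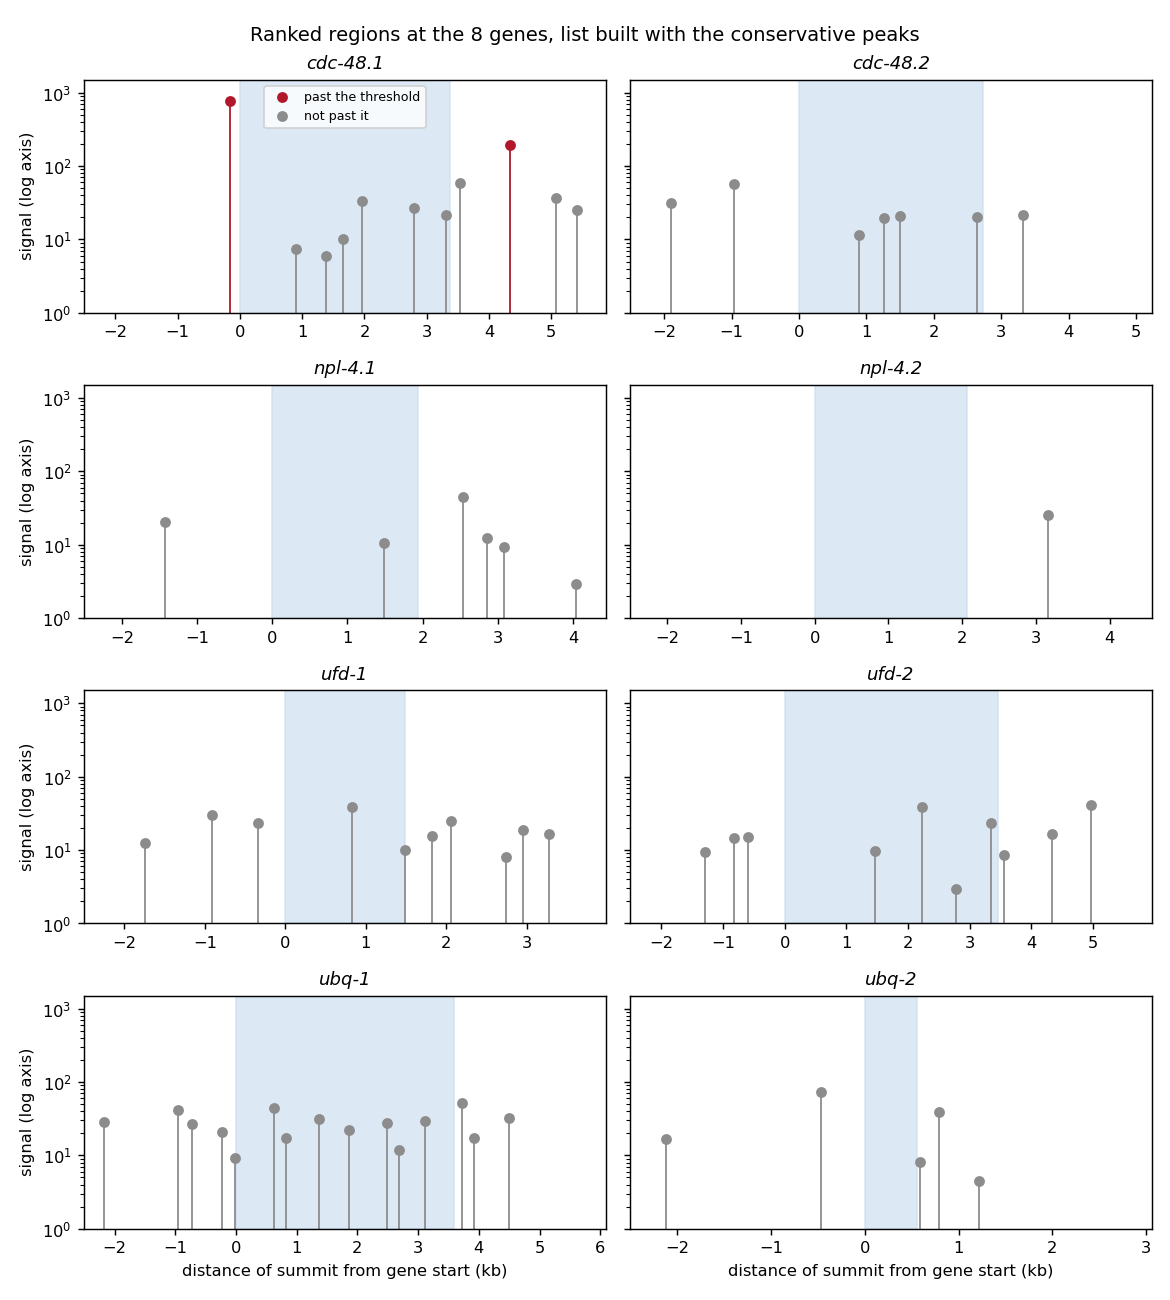
Signal (log axis) of each ranked region in the list built with the conservative peaks against the distance of its summit from the gene start (kb, in the direction of transcription) for the 8 genes, with the gene body shaded and peaks past the threshold in red. The 2 peaks of cdc-48.1, at 769 and 192, stand above every grey point, of which the highest is the ubq-2 region at 74.1.

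The gene cdc-48.1 (WBGene00007352, chromosome II, 10560036 to 10563407, minus strand) encodes the ATPase itself. Its strongest peak spanned II:10563441-10563699, with the summit at 10563574. The summit lay in intergenic sequence, 167 bp upstream of the annotated gene start, within the 704 bp that separate cdc-48.1 from C06A1.6, the next gene upstream on the same strand. No other protein-coding gene had a start nearer to it. The gene body hosts 2 small nucleolar RNA genes, C06A1.8 and C06A1.9, and the nearer of them was 510 bp from the summit. The promoter window, taken as 1000 bp before to 200 bp after a transcript start, held this summit, and 4.73% of all protein-coding genes had a conservative summit in theirs.

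The signal of this peak was 769 in both whole-series lists, 479 in replicate 1 and 293 in replicate 2. It ranked 8 of 1171 in the conservative list, 8 of 1349 in the other, 6 of 1128 in replicate 1 and 13 of 698 in replicate 2. The score was 1000, the highest possible, in all 4 lists. Next to it in the conservative ranking stood the peaks nearest to rpl-15, a gene of the large ribosomal subunit (779, rank 7), and to tos-1 (762, rank 9). Summits of the 2 replicates lay close together, 168 bp upstream of the gene start in replicate 1 and 173 bp upstream in replicate 2.

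The peak was narrower than most. It covered 259 bp, while 396 bp was the most frequent width in the conservative list and 14.5% of the 1171 peaks were narrower than that. Short width was common among the strongest peaks, since the 25 strongest spanned 206 to 359 bp with a median of 267 bp.

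A further peak lay beyond the 3′ end of cdc-48.1, at II:10558875-10559270, in intergenic sequence 4334 bp from the gene start. The nearest protein-coding start was that of mnk-1, which encodes a protein kinase, and the summit lay 4029 bp upstream of it. Its signal was 192 in the conservative list, 129 in replicate 1 and 72.6 in replicate 2, with a score of 1000 in each. The ranks were 271 of 1171, 225 of 1128 and 331 of 698. It therefore stood in the upper part of the conservative list and of replicate 1, and near the middle of replicate 2. With both peaks counted, cdc-48.1 belonged to the 1.33% of protein-coding genes that had at least 2 conservative peaks in the window.

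Another, weak peak touched the outer edge of the window in some lists only, at II:10557802-10558197. In the other whole-series list it had a signal of 24.9 and a score of 887, and it ranked 1293 of 1349. In replicate 2 a peak with its summit 8 bp away had a signal of 5.09 and a score of 841, at rank 692 of 698. A stronger region of replicate 2, with a signal of 32.1 and a score of 843, overlapped the whole-series peak as well but ended outside the window of cdc-48.1. The same place scored 10 in the conservative ranked list and 185, with a signal of 14.4, in replicate 1, and so passed in neither. This was the weakest of the peaks at cdc-48.1, and it was the only one whose presence differed between the lists.

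At the promoter peak the log2 ratio of the signal, replicate 1 over replicate 2, was 0.71, and at the downstream peak it was 0.83. Over the 1152 conservative peaks with a region in both replicates the median ratio was 0.36 with an SD of 0.50. Both cdc-48.1 values lay within 1 SD of that median, and 76.4% and 83.2% of the peaks had a lower ratio. Among the 25 strongest peaks, 23 were higher in replicate 1, with a range from -0.09 to 1.45. When each signal was divided by the median of its replicate over those 1152 peaks, 69.9 in replicate 1 and 53.3 in replicate 2, the ratios became 0.32 and 0.44. With 1 value per replicate and no stated scale between them, no error of the ratio can be given.

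**Figure D2:**
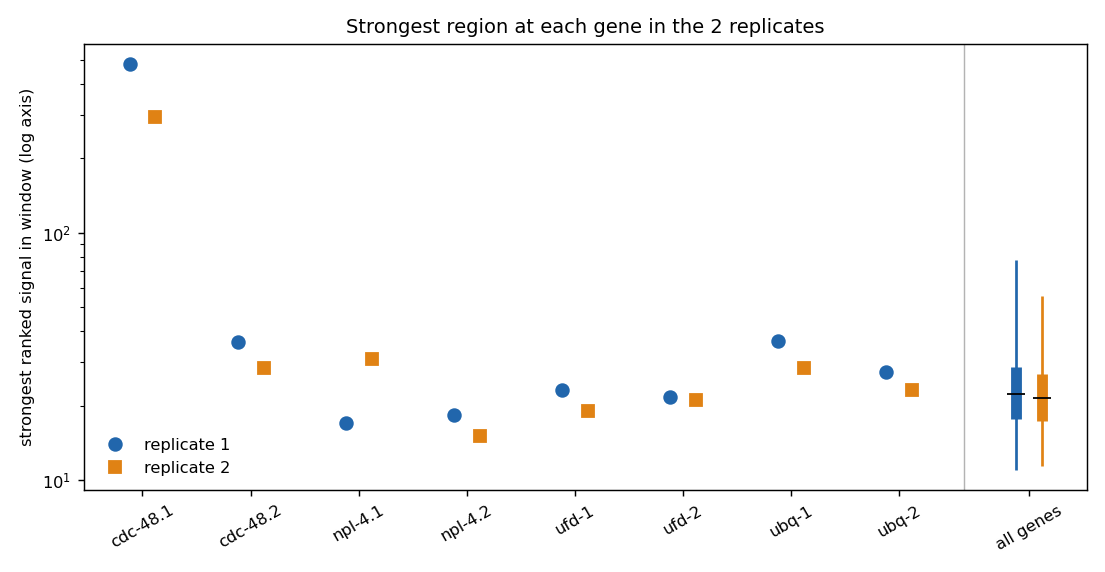
Strongest ranked signal (log axis) in the window of each gene in replicate 1 (circles) and replicate 2 (squares), with all protein-coding genes at the right (thin line 5th to 95th percentile, thick line quartiles, bar median). The circle and the square of cdc-48.1, 479 and 293, lie above the range drawn for all genes, while the other 7 genes lie between 15.1 and 36.5.

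The paralogue cdc-48.2 (WBGene00008053, II, 8138496 to 8141230, plus strand) encodes an ATPase of the same function. All 4 thresholded lists lacked a peak in its window. Its strongest ranked region, II:8137329-8137724, had a signal of 57.1 in both whole-series lists, 36.2 in replicate 1 and 28.4 in replicate 2. The summit was intergenic, 969 bp upstream of cdc-48.2, in a gap of 1577 bp shared with ctns-1, which encodes the lysosomal cystine transporter cystinosin and whose start, 609 bp away, was nearer. Each list thus placed a region at the same spot, within 7 bp of the conservative summit, in the upstream gap that the 2 genes share.

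The score of that region reached the threshold in no list, and came closest to it in the other whole-series list. It was 746 (IDR 0.0159) in the conservative ranked list, 825 (IDR 0.0103) in the other whole-series list, 700 (IDR 0.0206) in replicate 1 and 239 (IDR 0.265) in replicate 2. At 825 against a lowest passing score of 830, it was the member region just outside the threshold. Just inside it were the edge peaks of cdc-48.1, at 841 in replicate 2 and 887 in the other whole-series list.

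The strongest signal at cdc-48.1 was 13.5 times that at cdc-48.2 in the conservative ranked list, 13.2 times in replicate 1 and 10.3 times in replicate 2. The difference between the paralogues had the same direction and a similar size in each replicate. That is no separate support for it, because cdc-48.1 was chosen for its high signal in these same lists. Their coding sequences, 2427 and 2430 bp long, were 77% identical over 2405 aligned bases and shared no stretch of 50 bp. Neither the promoter peak of cdc-48.1 nor the cdc-48.2 region held any 50 bp word that occurs elsewhere in the genome.

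The cofactor pair ufd-1 and npl-4 supplies the ubiquitin-binding adaptor. At ufd-1 (WBGene00006733, IV, 12329408 to 12330890, minus strand), the strongest region had a signal of 38.9 in the conservative ranked list, 23.1 in replicate 1 and 19 in replicate 2. The first of these lay in a coding exon of ufd-1, 825 bp into the gene, with a score of 30. The strongest region of replicate 1 lay in a coding exon of F19B6.3, and that of replicate 2 was upstream of ufd-1, so that the 3 lists had their strongest region at 3 different places. The highest score in the window was 127 in the conservative list and 133 in replicate 1.

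At npl-4.1 (WBGene00019120, II, 5631351 to 5633284, plus strand) the strongest region had a signal of 45.3 in the conservative ranked list, 17 in replicate 1 and 30.9 in replicate 2. In the conservative list and in replicate 2 it lay downstream of the gene, 2531 and 2461 bp from its start. In replicate 1 the strongest region lay 1422 bp upstream instead, and the strongest region overlapping the downstream place had 9.37. By the strongest region in the window, npl-4.1 was the only 1 of the 8 genes with the higher value in replicate 2. The score was 21 in the conservative list and 462 in replicate 2.

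At npl-4.2 (WBGene00019121, II, 5622889 to 5624959, plus strand) there was 1 ranked region in the conservative list and 1 in each replicate, all downstream of the gene. The signal was 25.1 in the conservative list, 18.2 in replicate 1 and 15.1 in replicate 2, and the score was at most 35 in these lists. The summits lay 3166, 3678 and 3026 bp from the gene start in the same 3 lists, and the region of replicate 1 did not overlap the conservative one. Along the gene body itself no ranked list placed a summit in npl-4.2, and each placed 1 in npl-4.1.

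The npl-4 genes are nearly identical in sequence. The coding sequences of npl-4.1 and npl-4.2 matched at 1579 of 1587 bases (99.5%). Of all 50 bp words in the window, 49.2% at npl-4.1 and 55.7% at npl-4.2 occurred more than once in the genome, and within the gene bodies the shares were 82.6% and 79.5%. A copy within the same window counts as well. For cdc-48.1 the share was 5.71% over the window and 0 in the gene body. For ubq-1 it was 4.83% over the window, 10.3% in the gene body and 0 in the flanks, and for the other 4 genes it was 0. Within the strongest region of the conservative ranked list, 0 of 347 such words at npl-4.1 and 50 of 347 (14.4%) at npl-4.2 occurred more than once in the genome. How the authors treated reads that match several places is not stated in the files or labels, and its part in the values of the npl-4 pair was not tested.

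The E4 ligase gene ufd-2 (WBGene00006734, II, 8062741 to 8066193, plus strand) had a strongest signal of 41.4 in the conservative ranked list, 21.6 in replicate 1 and 21.1 in replicate 2. The region of the conservative list lay 4964 bp from the start of ufd-2, in an intron of pdha-1, which encodes a subunit of pyruvate dehydrogenase, and it scored 141. Replicate 1 had its strongest region there too, 29 bp from the conservative summit, while that of replicate 2 was in a coding exon of ufd-2.

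The strongest signal at cdc-48.1 was 19.8 times that at ufd-1 in the conservative ranked list, 20.7 times in replicate 1 and 15.4 times in replicate 2. Against npl-4.1 the ratios were 17, 28.2 and 9.47 in the same 3 lists, against npl-4.2 they were 30.7, 26.3 and 19.4, and against ufd-2 they were 18.6, 22.2 and 13.9. The widest spread between the replicates was at npl-4.1. At each of the 4 cofactor genes the strongest regions of the replicates lay at different places, so these ratios do not compare like places. In every list all 4 cofactor genes were below cdc-48.1 by more than 9 times.

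The polyubiquitin gene ubq-1 (WBGene00006727, III, 5940254 to 5943841, plus strand) had 15 ranked regions in the conservative list, the most of the 8 genes, and none was a peak. The strongest had a signal of 51 in the conservative list and lay in a coding exon of F25B5.5, 3715 bp from the start of ubq-1, with a score of 281. The highest score, 751 (IDR 0.0155), was shared by the overlapping regions III:5940687-5941082, with a signal of 44.3, and III:5940887-5941282, with 17.4. The stronger of them is the one printed and described. Its summit was in an intron of the longer transcript, 101 bp upstream of the start of the second annotated transcript, and the printed sequence ends directly before that start.

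In each replicate the strongest region of the ubq-1 window overlapped that place, with 36.5 in replicate 1 and 28.5 in replicate 2. The replicate summits lay 54 bp before and 102 bp after the conservative one. Both replicate regions overlapped both regions of the tied pair, and the replicate 2 summit lay between the summits of the pair. The score of the region was 506 in the other whole-series list, 454 in replicate 1 and 93 in replicate 2. The region was thus found in every list and fell short of the threshold in every list. By the strongest region in the window, cdc-48.1 exceeded ubq-1 15.1 times in the conservative ranked list, 13.1 times in replicate 1 and 10.3 times in replicate 2. The first of these ratios was taken at the exon of F25B5.5, with a signal of 51, and the replicate ratios at the place described here.

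At ubq-2 (WBGene00006728, III, 12977963 to 12978523, minus strand), the ubiquitin and L40 fusion gene, the strongest region spanned III:12978788-12979183. Its signal, 74.1 in the conservative ranked list, was the highest of the 7 genes without a peak. The summit lay 463 bp upstream of ubq-2 in the 638 bp between it and the divergent gene frg-1, whose start was nearer, at 176 bp. In replicate 1 the signal at this place was 27.4 with a score of 86. Replicate 2 had no ranked region there, and its strongest, at 23, lay in a coding exon of the neighbour ZK1010.2.

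The ubq-2 region shows how signal and score part. Of the 1171 conservative peaks, 194 had a weaker signal than this region, which nonetheless scored 664 (IDR 0.0251) in the conservative ranked list and 44 in the other whole-series list. Of the 1158 ranked regions with at least its signal, 181 did not pass the threshold. For the promoter peak of cdc-48.1, 1 of the 9 ranked regions with at least its signal did not pass. The strongest signal at cdc-48.1 was 10.4 times that at ubq-2 in the conservative list, 17.5 times in replicate 1 and 12.7 times in replicate 2. The last of these ratios was taken at the exon of ZK1010.2 and not at the upstream region.

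**Figure D3:**
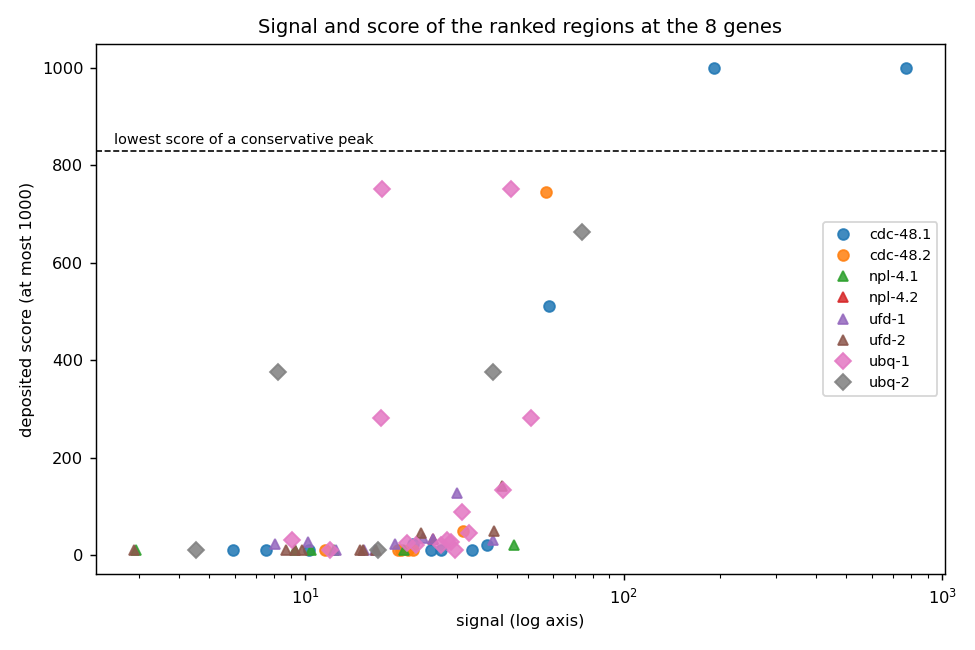
Deposited score (at most 1000) against signal (log axis) for the ranked regions at the 8 genes in the list built with the conservative peaks, with the lowest score of a conservative peak, 830, as a dashed line. Only the 2 peaks of cdc-48.1 lie above the line, and the regions of ubq-1 (751), cdc-48.2 (746) and ubq-2 (664) come next below it.

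Set among all 19973 genes by the strongest ranked signal in the window, cdc-48.1 ranked 19 in the conservative list, 13 in replicate 1 and 26 in replicate 2. The other 7 genes lay nearer to the genome median, which was 36.9 in the conservative list, 22.3 in replicate 1 and 21.5 in replicate 2. In the conservative list 90.6% of genes had a lower value than ubq-2, 85.4% lower than cdc-48.2, 80.8% lower than ubq-1, 72.7% lower than npl-4.1, 64% lower than ufd-2, 56.4% lower than ufd-1 and 11.9% lower than npl-4.2. These places depended on the list. For ubq-2 the share of lower genes was 71.9% in replicate 1 and 58.9% in replicate 2, and for npl-4.1 it was 21.2% in replicate 1 and 85% in replicate 2.

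The order below cdc-48.1 was only partly kept between the replicates. In replicate 1 the order was ubq-1, cdc-48.2, ubq-2, ufd-1, ufd-2, npl-4.2 and npl-4.1, from 36.5 down to 17. In replicate 2 it was npl-4.1, ubq-1, cdc-48.2, ubq-2, ufd-2, ufd-1 and npl-4.2, from 30.9 down to 15.1. In both, ubq-1 and cdc-48.2 stood side by side, 36.5 and 36.2 in replicate 1 and 28.5 and 28.4 in replicate 2. The genes ufd-1 and ufd-2 changed places between the replicates, and npl-4.1 was the lowest of the 7 in replicate 1 and the highest in replicate 2. In the conservative list ubq-2 came first, with 74.1 against 57.1 at cdc-48.2, while in both replicates it stood below cdc-48.2. With 1 value per replicate, and with some of these values taken at different places, no order among the 7 genes is claimed.

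A window of greater length has more chances to hold a strong region, and the windows ran from 4561 bp at ubq-2 to 7588 bp at ubq-1. Against genes whose windows were within 10% of the same length, the shares moved most at ufd-1, with 64.2% lower, and at npl-4.1, with 78.4% lower. In the same conservative list 91.4% of such genes had a lower value than ubq-2, 86.6% lower than cdc-48.2, 79.1% lower than ubq-1 and 99.9% lower than cdc-48.1.

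The genes with the profile most like that of cdc-48.1 were found by the mean absolute log2 difference of the strongest signal over the 4 thresholded lists, among 981 genes with a peak in each. C06A1.6 and C06A1.7, its neighbours, had a difference of 0 because the same promoter peak falls in their windows. Next, at 0.0844, came che-13, which encodes a protein of intraflagellar transport, tied with F59C6.18, nlp-4 and exos-3 through a single shared peak. The signal at cdc-48.1 was 769 in both whole-series lists, 479 in replicate 1 and 293 in replicate 2, and that of the shared peak was 785, 451 and 334 in the same lists. Because the whole-series lists carried equal signals at these peaks, the same value entered the mean for both of them. Those lists also derive from both replicates, so the 4 lists are not separate measurements.

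The wider pathway was described from 9 further gene lists. They were put together with earlier results of these data known, and they are given as counts without a test. Beside 1 of the 8 cdc-48 and ubiquitin genes (12.5%), 33 of the 132 listed genes found in the annotation (25%) had a conservative peak in the window, and 9.27% of all genes did. The 33 genes drew on 32 distinct peaks, and for 22 of them their own start was the one nearest to the summit, a count not made for all genes. With each conservative peak given only to the nearest start, 24 of the 132 genes had one, as did 4.96% of all genes. A peak in all 4 lists was found at 15 of the 132 genes, and at 981 of the 19973 protein-coding genes besides cdc-48.1. The median of the strongest ranked signal was 44.3 over the 132 genes, against 36.9 over all genes. The median window was 6572 bp for the 132 genes and 6027 bp for all genes, and the part of window length in the share was not tested.

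Among the other cofactors of CDC-48, 3 of 11 had a conservative peak. They were ubxn-3 with a signal of 227, ufd-3 with 177 and ubxn-2 with 95.1. UFD-3 is a ubiquitin-binding cofactor with WD repeats, and the UBXN proteins dock on the ATPase through a UBX domain. The summits at ufd-3 and ubxn-2 lay 69 and 162 bp upstream of the gene, while the one in the ubxn-3 window was nearest to F48A11.4. Of the proteasome shuttle and receptor genes 1 of 6 had a peak, ubql-1, the ubiquilin gene, with 188.

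Among genes for ubiquitin-like proteins 5 of 9 had a conservative peak, the highest share of the lists. The strongest were at lgg-2 (185), urm-1 (119), ubl-1 (89.6) and lgg-1 (84.1), of which the lgg genes encode the Atg8 proteins of autophagy and ubl-1 a ubiquitin-like protein fused to a ribosomal protein. The urm-1 peak was nearest to the start of sly-1, and the lgg-1 peak, 913 bp downstream of the gene start, to that of C32D5.8. The counts differed between lists, and 3 of the 9 had a peak in replicate 1 and 3 in replicate 2, against 8.9% and 5.86% of all genes.

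Of the E1 activating enzymes 1 of 8 had a conservative peak, atg-7 with 108, through a peak shared with let-70 and nearest to klc-1. Of the E2 conjugating enzymes 5 of 25 had one, led by ubc-25 (381, nearest to pas-5), ubc-6 (156), ubc-7 (116) and let-70 (108). Of the E3 ligase genes 9 of 32 had one. The strongest in an E3 window, 1010 at rnf-113, was the top peak of the whole list and was nearest to the start of tasp-1. Next came eel-1 (402), a HECT-type ligase gene, brc-1 (370), the worm BRCA1 gene, and wwp-1 (307), a further HECT-type ligase gene. The brc-1 summit lay 5741 bp downstream of the gene start, although the nearest transcript start was also one of brc-1. The peak of cdc-48.1 thus stood above all peaks in the windows of these genes except the one shared with tasp-1.

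Of the deubiquitinase genes 2 of 19 had a conservative peak, usp-39 (147) and usp-48 (80.3, nearest to F30A10.9), a share near that of all genes. In replicate 1 the count was 4 of 19 and in replicate 2 it was 0, against 8.9% and 5.86% of all genes. The strongest ranked region of replicate 2 in the usp-39 window had a signal of 130 and did not pass the threshold, while usp-48 had no ranked region there. Of the genes of endoplasmic reticulum-associated degradation, a route in which CDC-48 pulls proteins out of the membrane, 3 of 8 had a conservative peak, marc-6 (124), hrdl-1 (77.7) and rnf-121 (74.7). The peak in the marc-6 window was nearest to C35E7.9 and that of rnf-121 to C16C10.4. Among the other AAA ATPases 4 of 14 had one, atad-3 (211), nsf-1 (166), vps-4 (133) and spas-1 (88), and all 4 had the summit in the promoter window. Over the 9 lists together 24 of the 33 genes with a peak had a summit there. Of all protein-coding genes 945 (4.73%) had one there, and 1852 had a conservative peak in the gene body or within 2 kb. NSF-1 and VPS-4 take apart SNARE and ESCRT complexes.

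**Figure D4:**
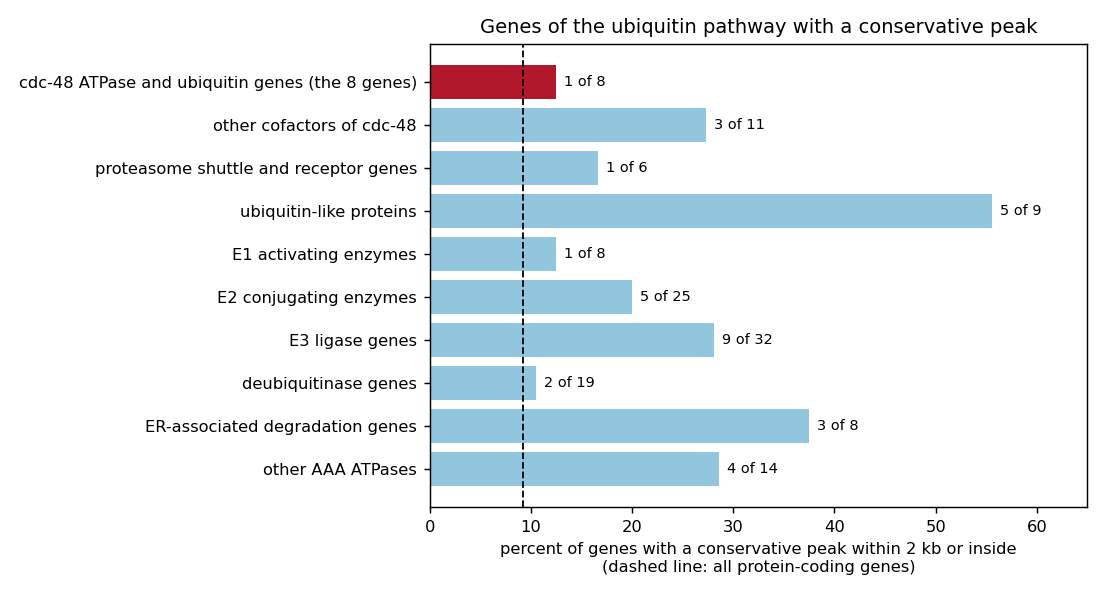
Percent of the genes of each list with a conservative peak in the gene body or within 2 kb, with the 8 cdc-48 and ubiquitin genes on top and a dashed line at 9.27%, the share of all protein-coding genes. The bars are labelled with counts, and the 8 genes (12.5%) lie between the shortest bar, 2 of 19 deubiquitinase genes (10.5%), and the longest, 5 of 9 genes for ubiquitin-like proteins (55.6%).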

How the data were processed

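The lists of regions were deposited on ce11, per the labels. In each, the authors deposited a score and a signal per region, in the 5th and 7th columns, and the ranked lists also hold the −log10 of the IDR. Replicate lists derive from 1 replicate and whole-series lists from both, each with a control, per the files' descriptions. For the aligner, the peak caller and their settings, nothing is given in the sources used here. Read depth is unknown. The nature of the other whole-series list is not stated. Each thresholded list was paired with the ranked list that holds all of its rows unchanged. In the whole-series ranked lists 8 columns of values from the inputs were not used.

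Genes came from Ensembl release 115 (nuclear, protein-coding) and sequence from the RefSeq copy of WBcel235, and 0 of 433455 regions passed a chromosome end. A region belonged to a gene when it touched the gene body plus 2000 bp by at least 1 bp, and rank was by signal within a list. For each replicate, the strongest ranked region that overlapped a peak gave the signal there. Sequence uniqueness was counted in words of 50 bp on both strands. The members and lists were chosen with earlier results of these data known, and 5 symbols of the lists were not found in the annotation. Named were all 8 genes, the gene whose start is nearest to each peak and small RNA genes within 250 bp, the 4 genes of highest conservative signal in each other list, and the 3 genes most like cdc-48.1. The genes tied with the third, the neighbours in rank, the host small nucleolar RNA genes and the neighbouring genes were named after their values were seen. Tested on simulated data first, the code ran in Python 3.11.15 with numpy 2.4.6, pandas 2.3.3, Biopython 1.88 and matplotlib 3.10.9.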

Additional observations from a re-analysis of the deposited data

How the results depend on the processing

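With gene bodies alone as the window, 0 of the 8 genes and 9 of the 132 other genes of the pathway had a conservative peak, against 1 and 33 with 2 kb on both sides, and 3.25% of all genes did. Under the other windows, overlap rule, whole-series list, score cut and gene assignment the counts were 1 of 8 and 24 to 37 of 132, while the share of all genes was 4.96% to 10.2%. From a single replicate's list they were 1 to 1 and 19 to 28, the rank of the promoter peak of cdc-48.1 was 6 to 13 instead of 8, and the log2 ratio of its signal to that of cdc-48.2 was 3.37 to 3.73 instead of 3.75. The lower counts came from replicate 2, which holds fewer peaks. The strongest region of ubq-2 ranked 1158 in the conservative list and 4752 and 7588 in replicates 1 and 2, and that of npl-4.1 ranked 4512, 23507 and 2118. No paired analysis was possible because there was 1 group of samples. Unknown read depth limits what the weaker regions can show: a gene without a peak is not shown to be unbound.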
